A study of Homo sapiens with 3 samples.

Results

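SNORD100, entered in the deposited files as HBII-429, is a box C/D small nucleolar RNA (snoRNA) made from an intron of the ribosomal protein gene RPS12. It was taken by its entry name and is 1 of 259 snoRNAs with reads, with 1589 of 51039 counts. SNORD100 was chosen by its measured counts, read lengths and read positions in these libraries, so its level, read ends, gapped reads and short reads are given as a description with no test. All 3 libraries came from HEK293, an established cell line of human embryonic kidney origin, grown in DMEM with foetal bovine serum and penicillin and streptomycin, and form 1 group with no treatment named and no control. RNA was extracted with phenol and chloroform and cleaned on magnetic beads for small RNAs, and adapters were added with an Ion Total RNA-Seq kit. The series asks whether the snoRNA U3 gives rise to miRNAs. Nothing in the labels tells separate cultures from repeat libraries of one, so the spread between libraries may be technical.

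Box C/D snoRNAs carry a C box near the 5′ end and a D box near the 3′ end, which a short terminal stem brings together, and often less conserved C′ and D′ boxes inside. They assemble with fibrillarin, NOP56, NOP58 and SNU13, and the bases just upstream of a D or D′ box pair with ribosomal RNA and direct its 2′-O-methylation. In vertebrates most are freed from spliced introns by exonucleases that trim the ends up to the assembled proteins. SNORD100 is known as a guide for 18S rRNA, through the stretch upstream of its D′ box.

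The gene lies at chr6:132816802-132816877 on the plus strand of GRCh38 (GENCODE 29, ENSG00000221500.1), within intron 4 of RPS12, which has 6 exons. It starts 238 nt after the upstream exon and ends 82 nt before the next exon, in an intron of 396 nt. The gene has 76 nt, which is also the highest read position under the entry, so read positions were counted along this sequence from its 5′ end. Only 1 read, in library 3, reached position 76. No read sequences were given, so this placement could not be checked against them. The gene's sequence is shown with the C, D′ and D boxes in capitals (TGATGA once, at 9 to 14, and CTGA at 31 to 34 and 66 to 69). The commonest reads and the pieces of the molecule on either side of position 36 are shown with it, because the read ends described here lie at fixed distances from these boxes.
SNORD100 gene: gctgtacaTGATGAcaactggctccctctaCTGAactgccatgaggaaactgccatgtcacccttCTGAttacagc
read 4 to 71: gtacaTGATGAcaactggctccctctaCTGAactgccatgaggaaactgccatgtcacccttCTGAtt
read 3 to 71: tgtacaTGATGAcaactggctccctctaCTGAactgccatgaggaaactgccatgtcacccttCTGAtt
read 3 to 36: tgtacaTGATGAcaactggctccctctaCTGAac
read 37 to 71: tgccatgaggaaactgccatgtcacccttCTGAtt

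The first 6 and the last 6 bases of the gene are perfectly complementary and form the arms of the terminal stem. A direct repeat of 10 bases, aactgccatg, occurs at 34 to 43 and again at 48 to 57. The first copy shares base 34, the last base of the D′ box, and the rest of both copies lies 3′ of that box. On the given strand TGATGA was found in 65.6% and CTGA in 99.2% of the 122 box C/D snoRNAs whose GENCODE sequence was matched by name, and neither set of letters overlaps the other in SNORD100. A match describes the letters only.

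SNORD100 was among the most abundant snoRNAs in every library. It had 680 of 19989 counts in library 1, 406 of 11958 in library 2 and 503 of 19092 in library 3. These are 3.40%, 3.40% and 2.63% of the counts, with exact (Clopper-Pearson) 95% intervals of 3.15% to 3.66%, 3.08% to 3.74% and 2.41% to 2.87%. Libraries 1 and 2 were alike and library 3 was lower, with an interval that does not meet theirs. Intervals cover counting error only, since PCR copies were not told apart by molecular identifiers. The mean share was 3.14% ± 0.441 (SD, n = 3). These are bulk libraries, in which fewer expressing cells and less RNA per cell cannot be told apart.

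By mean share SNORD100 was rank 4 of 259, and by library rank 4, 5 and 4. Of the snoRNAs next above it, SNORD31 had 5.46%, 3.47% and 2.89%, SNORD2 had 3.32%, 5.61% and 2.73%, and SNORD44 had 3.09%, 5.65% and 2.46% of the counts in libraries 1, 2 and 3. Next below were SNORD78 with 2.46%, 5.12% and 1.67%, SNORD42B with 3.50%, 2.73% and 1.95%, and SNORD45A with 3.71%, 2.27% and 1.99%. The ranges of all 6 overlapped that of SNORD100, so its place among them is not fixed beyond the spread between libraries. The rank was 3 without library 2 and 5 without library 1 or library 3. Its neighbours moved more between libraries than SNORD100 did. The highest share of SNORD100 was 1.29-fold the lowest, rank 15 from the smallest fold among the 125 snoRNAs that had 10 or more counts in each library, and the median fold of the others was 1.79. With edgeR TMM library sizes the fold of SNORD100 was 1.57, and with DESeq2 size factors 1.64. The rank and the median of the others were not recomputed under these scalings, so they hold for unscaled shares only.

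**Figure D1:**
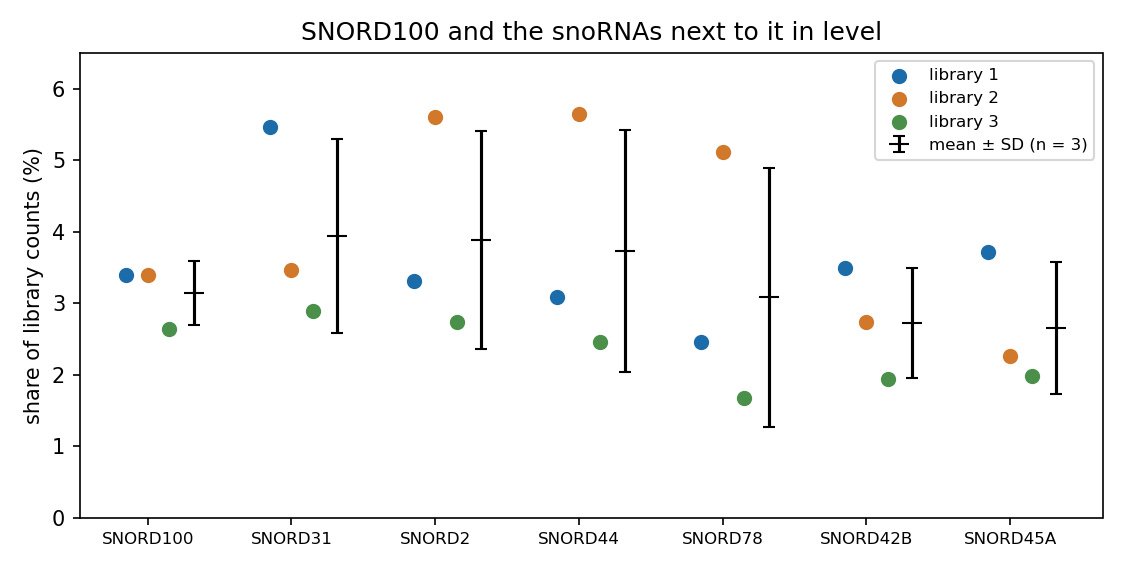
Share of library counts (y axis, percent) of SNORD100 and of the 3 snoRNAs next above and next below it by mean share, 1 point per library, with mean ± SD (n = 3) as a bar beside the points. SNORD100 lies between 2.63% and 3.40%, a narrower range than those of its 6 neighbours.

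RPS12 also hosts SNORD101, another box C/D snoRNA, in intron 3, and SNORA33, a box H/ACA snoRNA, the class that guides pseudouridylation, in intron 5. SNORD100 held nearly all snoRNA reads of this host gene. Their sequences are shown with the C and D boxes of SNORD101 and the ACA box of SNORA33 in capitals, for comparison with the sequence of SNORD100.
SNORD101 gene: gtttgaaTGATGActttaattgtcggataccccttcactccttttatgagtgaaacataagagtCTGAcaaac
SNORA33 gene: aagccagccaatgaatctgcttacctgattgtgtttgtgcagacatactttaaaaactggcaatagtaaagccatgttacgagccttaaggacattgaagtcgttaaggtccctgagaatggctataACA

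SNORD100 had 680, 406 and 503 reads, against 6, 7 and 9 reads of SNORD101 and 17, 5 and 10 reads of SNORA33 in libraries 1, 2 and 3. The ranges do not overlap. Per 100 nt of snoRNA this is 894.7, 534.2 and 661.8 reads for SNORD100, 8.22, 9.59 and 12.3 for SNORD101 (73 nt) and 13.1, 3.85 and 7.69 for SNORA33 (130 nt). On the scale of reads per length, SNORD100 exceeded SNORD101 68.8-fold (log2 6.10) and SNORA33 93.5-fold (log2 6.55) by the mean log2 ratio. In libraries 1, 2 and 3 these per-length folds were 108.9, 55.7 and 53.7 over SNORD101 and 68.4, 138.9 and 86.0 over SNORA33. Without regard to length SNORD100 exceeded SNORD101 71.6-fold and SNORA33 54.7-fold. The log2 ratios of counts were 6.16 ± 0.57 and 5.77 ± 0.52 (SD, n = 3). SNORD101 lies at chr6:132815307-132815379, 1081 nt before the next exon, and SNORA33 at chr6:132817219-132817348, 131 nt before it, against 82 nt for SNORD100.

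The co-hosted snoRNAs had few reads, and some of these were short. SNORD101 had 4, 6 and 1 reads of up to 40 nt, out of its 6, 7 and 9. SNORA33 had 0, 4 and 2 such reads out of its 17, 5 and 10. The longest SNORA33 reads had 132, 129 and 130 nt. Whether snoRNAs of different length were captured equally was not tested.

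**Figure D2:**
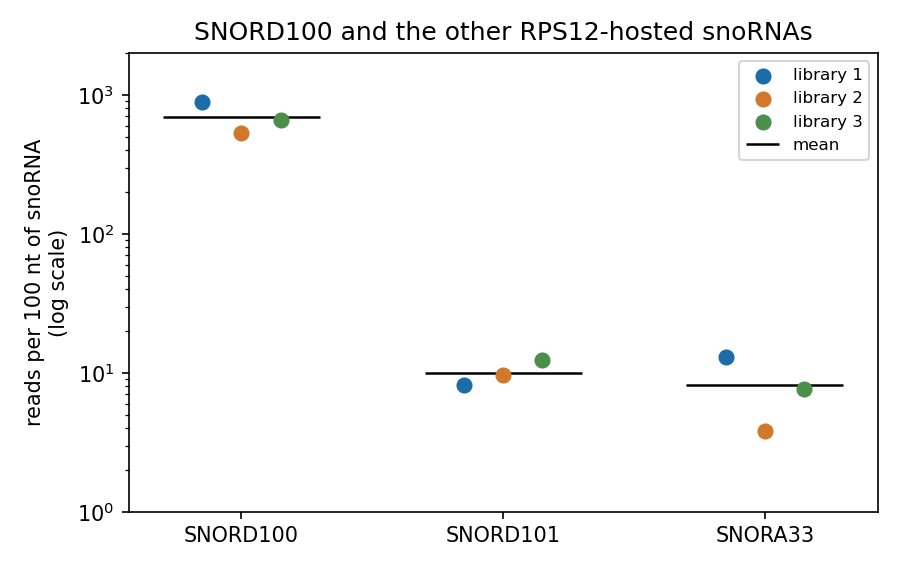
Reads per 100 nt of snoRNA (y axis, log scale) of SNORD100, SNORD101 and SNORA33, the snoRNAs hosted by RPS12, 1 point per library with the mean as a line. The SNORD100 points lie between 534.2 and 894.7, and all points of the other snoRNAs lie at or below 13.1.

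Most SNORD100 reads were nearly complete molecules. Reads from position 4 to 71 made up 46.5%, 48.0% and 49.5% of its reads in libraries 1, 2 and 3 (316, 195 and 249 reads). Reads from 3 to 71 made up 34.9%, 35.7% and 34.99% (237, 145 and 176 reads). The order of these 2 forms was the same in every library. Reads from 4 to 70 numbered 21, 13 and 19, and reads from 3 to 70 numbered 19, 4 and 10. Together these 4 forms held 88.5% ± 1.59 of the reads (SD, n = 3). Other forms with at least 5 reads in a library ran from 6 to 71 (7, 1 and 3 reads) and from 8 to 71 (6, 2 and 5 reads).

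The 5′ end was split between neighbouring bases. Position 4 opened 52.6%, 54.4% and 55.7% of reads and position 3 opened 41.03%, 39.4% and 39.6%. The ratio of reads from 4 to reads from 3 was 1.28, 1.38 and 1.41, a mean of 1.36 ± 0.0654 (SD, n = 3). Starts at 5 to 13 made up 4.71%, 2.46% and 3.18%. No read started at position 1 or 2 (0 of 680, 0 of 406 and 0 of 503), which allows a share of up to 0.441%, 0.739% and 0.596%, taking 3 counts as the floor. The upper limits of the exact 95% intervals were 0.541%, 0.904% and 0.731%.

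The 3′ end was held at a single base. Position 71 closed 85.7%, 88.7% and 87.9% of reads, and position 70 closed 6.32%, 5.17% and 5.96%. Only 5, 2 and 3 reads went on to 72 or beyond. The 3′ end did not follow the choice of 5′ end in any clear way. Of the reads from 3, 84.9%, 90.6% and 88.4% ended at 71, and of the reads from 4, 88.3%, 88.2% and 88.9% did. The commonest read therefore lacks bases 1 to 3 and 72 to 76 of the annotated gene, 3 of the 6 bases of the 5′ arm of the terminal stem and 5 of the 6 bases of the 3′ arm. Positions 8 to 69 were covered by 93.1% to 98.7% of reads in library 1, 93.8% to 96.3% in library 2 and 94.8% to 98.6% in library 3, counting every position between a read's first and last as covered.

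**Figure D3:**
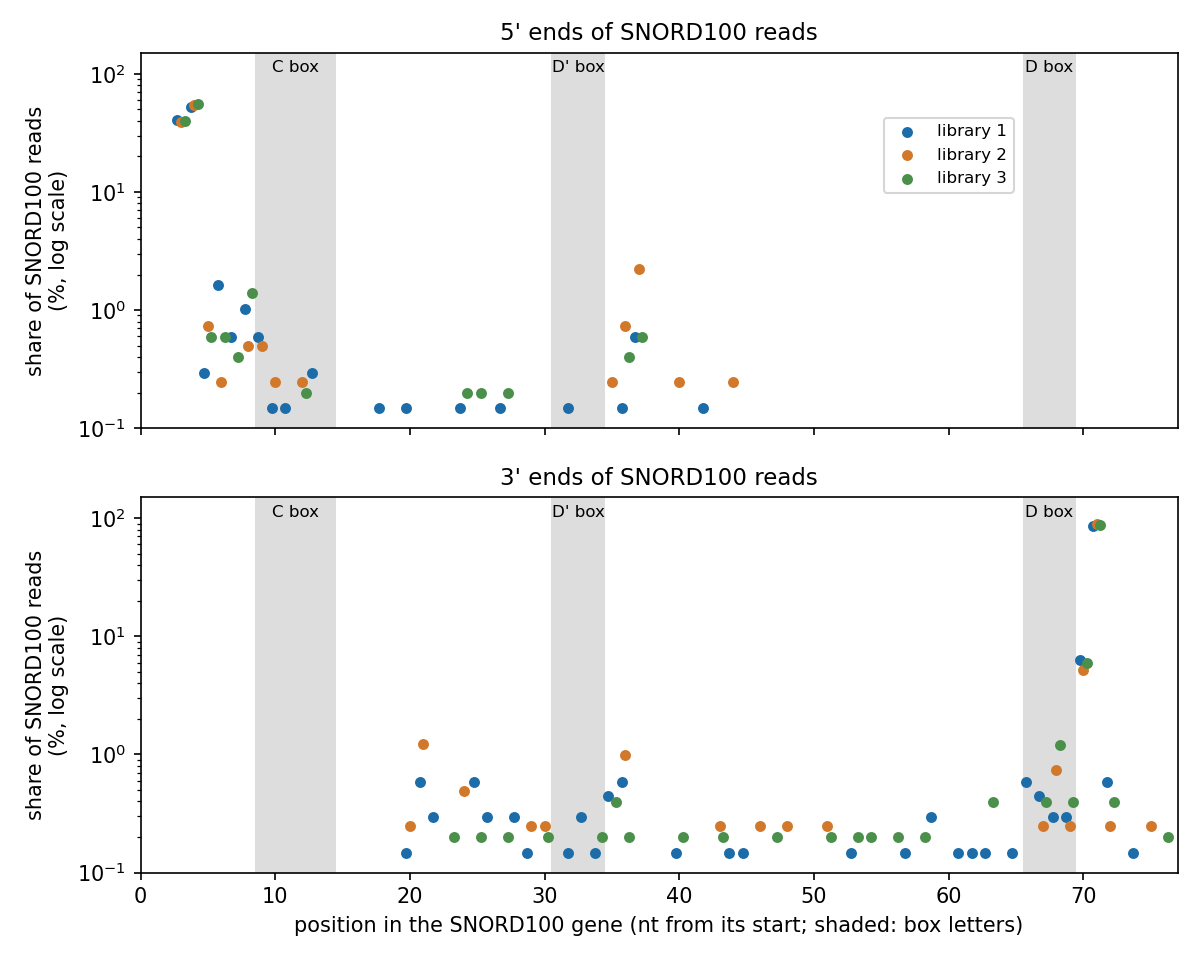
Share of SNORD100 reads (y axis, percent, log scale) by position of the 5′ end (upper panel) and the 3′ end (lower panel) in nt from the gene's start, 1 point per library at each position with reads, with the C, D′ and D box letters shaded. The 5′ ends gather at 3 and 4 and the 3′ ends at 71, with small groups of 5′ ends at 36 and 37 and of 3′ ends at 35 and 36 just after the D′ box.

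Set against the boxes, the commonest 5′ end lay 5 nt before the TGATGA of the C box and the commonest 3′ end 2 nt after the D box. The same distances were measured in other box C/D snoRNAs that had 10 or more counts in each library and a highest read position equal to the GENCODE length (36 snoRNAs). TGATGA was sought in the first 20 nt and CTGA in the last 20 nt. Of the 23 others with TGATGA there, 13 had 6 nt before it, 5 had 5 nt as SNORD100 does, and 5 had another distance. Among these last was SNORD14A, whose commonest 5′ end, at 68, lay past its C box. In SNORD100 the second commonest 5′ end, position 3 with 39.4% to 41.03% of reads, lies 6 nt before TGATGA. Of all 36 others, 10 had 2 nt after the D box as SNORD100 does, 2 had 3 nt, 11 had 4 nt and 13 had 5 nt. SNORD100 thus stood with the shorter of these distances after the D box. Read positions do not pass the ends of an entry. Many of the others had a commonest end at that limit, such as SNORD98 (1 to 67 of 67 nt). The commonest ends of SNORD100, 4 and 71 of 76 nt, lie inside its entry. How far the distances of the others reflect where the annotated gene stops was not tested.

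Compared with other box C/D snoRNAs, SNORD100 had a fixed 3′ end and a less fixed 5′ end. The ranks that follow are over the 108 box C/D snoRNAs that had 10 or more counts in each library, SNORD100 included, and some rest on few reads. Many of the others had a commonest end at position 1 or at their highest read position, such as SNORD98 (1 and 67 of 67 nt). SNORD100, with 4 and 71 of 76 nt, did not, so the shares may not be like for like, which was not tested. Its share at the commonest 3′ end, 87.4% ± 1.52 (SD, n = 3), was rank 8 from the highest, against a median of 62.3% in the other 107. Its share at the commonest 5′ end, 54.2% ± 1.52 (SD, n = 3), was rank 88 from the highest, against a median of 75.7%. Among the 27 that had 100 or more counts in each library these ranks were 2 and 24.

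**Figure D4:**
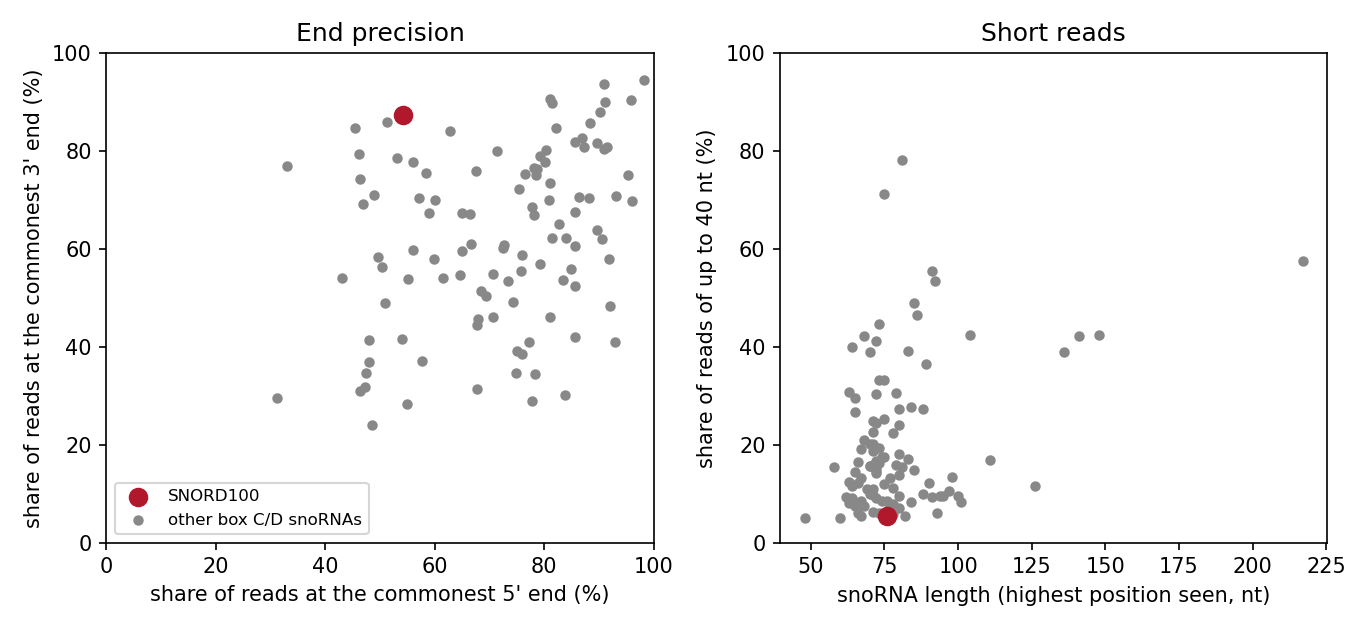
SNORD100 (large point) and 107 other box C/D snoRNAs (small points) by the share of reads at the commonest 5′ end against that at the commonest 3′ end (left, percent) and by snoRNA length (highest read position, nt) against the share of reads of up to 40 nt (right, percent), as means of 3 libraries. SNORD100 has 54.2% at its commonest 5′ end and 87.4% at its commonest 3′ end, and lies at 5.40% short reads among snoRNAs of about its length.

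How complete its reads look depends on where the line for full length is set. Length was taken as the highest read position, for SNORD100 the 76 nt of the gene, reached by 1 read. Of the 108 box C/D snoRNAs with 10 or more counts in each library, 37 were found to have this same length in GENCODE. Shares of full-length reads may therefore not be like for like, which was not tested. At 90% of the length, 35.6%, 36.2% and 35.6% of SNORD100 reads counted as full length in libraries 1, 2 and 3, against 71.6%, 58.4% and 68.7% in all other box C/D snoRNAs pooled. The mean, 35.8% ± 0.358 (SD, n = 3), was rank 89 from the highest of the 108, against a median of 70.3% in the other 107. The read from 4 to 71, with 68 of 76 nt, lies just under that line. At 80% the share was 93.2% ± 1.97 (SD, n = 3), rank 3 from the highest of the 108, against a median of 79.0% in the other 107. At 95% it was 0.148%. The median read length was 68 nt in every library.

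Short fragments were scarce. Reads of up to 40 nt were 37, 30 and 17 of the SNORD100 reads in libraries 1, 2 and 3, or 5.44%, 7.39% and 3.38%. In all other box C/D snoRNAs pooled they were 11.7%, 25.9% and 11.6%. The SNORD100 share was below the pooled share in every library, at 0.465, 0.286 and 0.290 times its value. Library 2 had the highest share both in the pooled reads and in SNORD100. The SNORD100 interval there, 5.04% to 10.4%, overlapped that of library 1, 3.86% to 7.42%, and that of library 3, 1.98% to 5.36%. With so few short reads, this overlap does not show that SNORD100 moved less than the pooled reads. The mean was 5.40% ± 2.00 (SD, n = 3), and 4.41% without library 2. It was rank 3 from the lowest of 108, after SNORD49B (5.04%) and SNORD75 (5.07%), whose genes are only 48 and 60 nt long by their highest read position. Close behind were HBII-82B and SNORD98 (5.49% each) and SNORD69 (5.66%), within the spread between libraries, so low shares were not particular to SNORD100. Among the 27 that had 100 or more counts in each library it was rank 2 from the lowest, against a median of 9.54% in the other 26.

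Reads of miRNA size, 20 to 24 nt, numbered 7, 2 and 5, or 1.03%, 0.493% and 0.994% of SNORD100 reads. The pooled other box C/D snoRNAs had 2.34%, 4.40% and 2.59%. The 14 reads fell into 13 records, of which the largest had 2 reads, so no single fragment of this size stood out. Of these reads, 8 started at position 3 or 4, and 1 started at 35 or later. Reads of 18 or 19 nt numbered 6, 6 and 1.

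The short reads mostly kept one of the natural ends. Of the 84 reads of up to 40 nt, 48 started at 3 or 4 (24, 15 and 9), 23 ended at 70 to 72 (6, 14 and 3) and 13 had neither (7, 1 and 5). Reads with the 3′ end were mostly from library 2. Some ended or began just after the D′ box, a place singled out after the values were seen. Reads of up to 40 nt that ended at 35 or 36 numbered 7, 4 and 3, and those that began at 36 or 37 numbered 5, 12 and 5. Position 36 lies 2 nt after the D′ box, the same distance at which position 71 follows the D box. Another small group started at 3 or 4 and ended at 20 to 22, with 7, 6 and 0 reads. Each of the groups that ended at 35 or 36, began at 36 or 37, or ended at 20 to 22 held at most 3% of SNORD100 reads in any library.

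**Figure D5:**
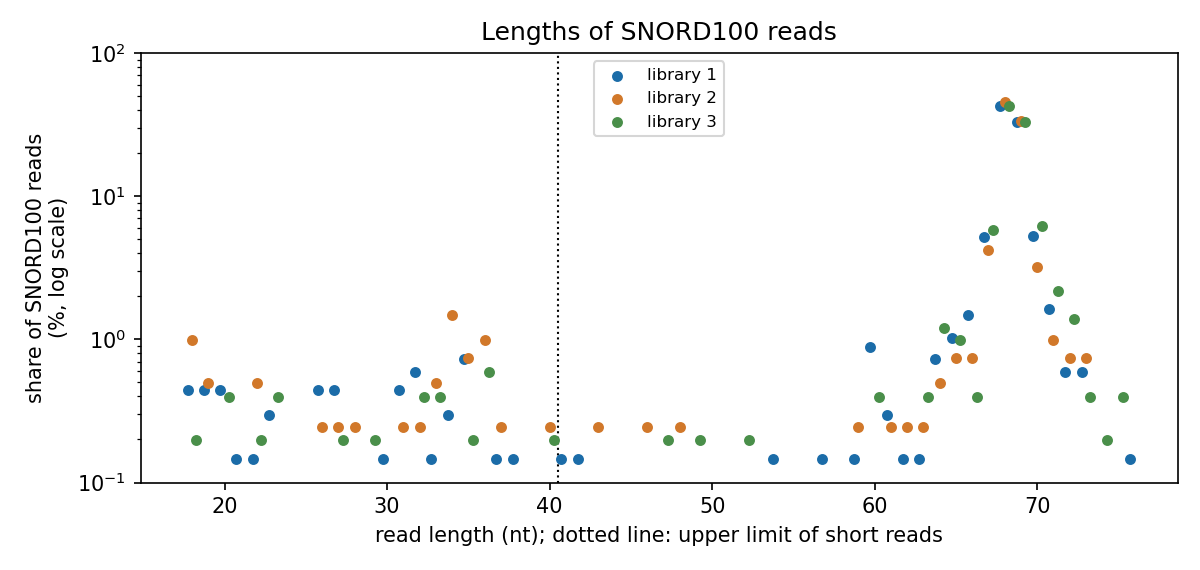
Share of SNORD100 reads (y axis, percent, log scale) by read length in nt, 1 point per library at each length with reads, with the upper limit of short reads dotted. Reads of 68 and 69 nt lead in all 3 libraries, 5, 4 and 3 reads lie between 41 and 59 nt, and the reads of up to 40 nt are spread over many lengths.

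A part of the reads did not match the gene base for base in length. Reads whose length differed from the span between their first and last position made up 20.7%, 10.1% and 20.9% of SNORD100 reads (141, 41 and 105 reads). Library 2 was lower, with an interval of 7.34% to 13.4% against 17.7% to 23.98% and 17.4% to 24.7% in libraries 1 and 3. In the pooled other box C/D snoRNAs the shares were 23.4%, 17.6% and 22.9%, also lowest in library 2. Most of these SNORD100 reads were longer than their span (118, 32 and 87 reads), by a single base in 79, 16 and 48 reads, and fewer were shorter (23, 9 and 18 reads). The files give no read sequence, so where the extra or missing bases lie is not known. The mean share, 17.2% ± 6.18 (SD, n = 3), was rank 70 of 108 from the highest, against a median of 19.4% in the other 107. Without library 2 it was 20.8%.

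Reads of the same form were spread over many records. Reads from 4 to 71 were listed in 57, 24 and 42 records, but 244, 171 and 186 of them were in a single record of 68 nt. Reads from 3 to 71 were listed in 48, 22 and 42 records, with 178, 122 and 128 in a single record of 69 nt. In all, SNORD100 had 197, 89 and 142 records, of which 168, 72 and 125 held 1 read each. No SNORD100 read lay on the opposite strand.

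Among snoRNAs that had 10 or more counts in each library, those whose shares moved over the 3 libraries most like SNORD100 were SNORD69, SNORD36B, SNORD38B, SNORD57 and SNORD24. The measure was the largest difference between log2 shares, each centred on its own mean, and it was 0.07, 0.11, 0.13, 0.13 and 0.14 for these snoRNAs, against a median of 0.59 over the others. SNORD69 had 523, 294 and 355 counts (2.62%, 2.46% and 1.86%). The share of short reads, which the measure did not use, was 5.40% in SNORD100, against 5.66% in SNORD69, 22.7% in SNORD36B, 10.9% in SNORD38B, 41.2% in SNORD57 and 17.6% in SNORD24. With 3 libraries, such likeness is a description only.

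A list of 26 guides of 18S rRNA methylation, SNORD100 included, was drawn from textbook knowledge and was not checked for completeness. Of these, 23 were among the snoRNAs with reads and 21 had reads in all 3 libraries. SNORD14C, SNORD14D and SNORD14E were matched to none. SNORD100 had the second highest mean share, 3.14% ± 0.441, behind SNORD44 with 3.73% ± 1.69 and ahead of SNORD42B, SNORD45A and SNORD27 with 2.73% ± 0.774, 2.65% ± 0.927 and 2.11% ± 0.474 (SD, n = 3 each). The spreads of SNORD44, SNORD42B and SNORD45A overlapped its own. SNORD100 made up 15.001%, 15.97% and 14.1% of the list's counts. Its place and this share hold for the list only, not for all guides of 18S rRNA. The median share of the other 22 was 0.323%, close to the median of 0.332% over all other box C/D snoRNAs. The lowest were SNORD28 with 31, 7 and 7 counts, SNORD62A with 38, 0 and 0, SNORD14B with 13, 4 and 11 and SNORD66 with 8, 4 and 13. SNORD62A and SNORD14B have near-identical copies, so their counts are uncertain.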

How the data were processed

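Small RNA of HEK293 cells was sequenced in 3 libraries of 19989, 11958 and 19092 snoRNA counts, which form 1 group. The deposited per-library files hold raw counts per record, per the file headers: a snoRNA entry, read length, first and last position and count. Per the submitters' processing notes, the authors used GRCh38.p10. Neither aligner nor filters are named in the sources used here. Lengths and positions are in nt as deposited. The deposited table of raw counts for miRNAs and snoRNAs gave 680 for SNORD100 in library 1, as did the records, and 2 of its columns matched no sample and were not used.

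Of 260 entries, 249 matched 1 symbol in a RefSeq gene table (GRCh38.p14, names only), 11 kept the file's name, and the 2 entries of SCARNA2 were summed. Sequences and coordinates came from GENCODE 29. Shares were computed per library over all snoRNA counts, with exact 95% intervals. Reads of the opposite strand were left out of read shapes. No test was run, because SNORD100 and the lists were chosen with earlier results of these data known. Named snoRNAs were the other RPS12-hosted ones, the 3 next above and below in level, the 5 most alike over libraries and the 4 highest and lowest of the 18S list. SNORD49B, SNORD75, SNORD98, HBII-82B, SNORD14A and the fragments near the D′ box were named after their values were seen. Alternatives tried were other scalings (edgeR 4.0.16 and DESeq2 1.42.0 in R 4.3.3), read filters, length limits and leaving out each library. SciPy 1.17.1, NumPy 2.4.6, pandas 2.3.3, matplotlib 3.10.9 and Python 3.11.15 were used, and the scripts were tested on simulated data.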

Additional observations from a re-analysis of the deposited data

How the results depend on the processing

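Of 77 values of 12 results recomputed under other settings, 50 moved by less than the spread between libraries (for the fold between libraries, than its counting interval), and 0 reversed. A mean of 3 libraries cannot move by that spread when 1 library is left out, so those values were bound to be among the 50. Shares, ranks and folds cannot change sign, so only the log2 ratios could have reversed. Leaving out 1 library at a time gave a rank between 3 and 5 and a fold between the highest and lowest library between 1.00 (without library 3) and 1.29. The rank was 5 with only ungapped reads and 5 with shares per nt, an alternative chosen after seeing the data. With only ungapped reads the commonest form was 49.6% of reads. The fold was 1.57 with TMM and 1.64 with DESeq2 size factors. Counting each record once gave a share of 1.99%, rank 9, a commonest form of 28.5%, a commonest 5′ end of 42.5%, a commonest 3′ end of 68.2%, gapped reads of 54.0%, short reads of 16.5%, full-length reads of 28.2%, reads of 20 to 24 nt of 2.73%, and log2 ratios of 4.60 to SNORD101 and 4.08 to SNORA33. This setting gives a form listed in 1 record the same weight as one with many reads. With full-length reads only (90%), the commonest form, 4 to 71, held 0% by construction, its 5′ end 0.186% and its 3′ end 98.3%. Full-length reads were 93.2% at 80% and 0.148% at 95%. Gapped reads were 6.47% when a difference of 2 or more bases was required, and reads of 18 to 25 nt were 1.69%. No paired analysis was possible because there is 1 group. With 406 to 680 reads of SNORD100 per library, forms of 1 or 2 reads cannot be ordered.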
